A study of Mus musculus with 6 samples.

Results

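DNA methylation is written and removed by a small set of enzymes, and the expression of 9 of their genes was followed here, of 24393 genes listed in the count tables. The genes were chosen by name as the known enzymes and their core partners: Dnmt1, Uhrf1, Dnmt3a, Dnmt3b and Dnmt3l on the methylating side, and Tet1, Tet2, Tet3 and Tdg on the demethylating side. All 9 were listed, and 8 passed the filter on low counts and were tested (13600 genes in all). RNA came from KH2 mouse embryonic stem cells, labelled as strain C57/BL/6 with genotype CONTROL or HOXA13, in 3 libraries each. Both groups had been differentiated towards definitive endoderm, the layer that lines the gut, on M15 feeder cells with Activin-A, bFGF, CHIR and Noggin. The HOXA13 cells carry a FLAG-tagged human HOXA13 gene that doxycycline switches on, at 1.25 µg/ml from day 4. Cells bearing CXCR4 and E-cadherin at their surface were sorted at day 6 and kept for 1 more day with doxycycline. The HOXA13 cells come from clones selected with hygromycin, and the study's text calls the comparison cells wildtype and the replicates of both groups biological. Both groups carry the same protocol text, which does not say separately whether CONTROL cells received doxycycline, so an effect of HOXA13 and one of doxycycline cannot be told apart here if they did not. It also does not spell out whether each replicate is a clone of its own, so p-values measure the spread between these 6 libraries.

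Methyl groups on cytosine, mostly where a C is followed by a G, silence promoters, repeats and imprinted alleles. DNMT1, brought to newly copied DNA by UHRF1, copies the existing pattern, whereas DNMT3A and DNMT3B, helped by the inactive partner DNMT3L, lay down methylation where none was. The TET enzymes oxidise the methyl group, and the glycosylase TDG removes the oxidised base so that repair restores a plain C. Embryonic stem cells are known for high Tet1, Dnmt3b and Dnmt3l, and lose Tet1 and Dnmt3l as they leave pluripotency.

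Total counts ran from 12279884 to 17331638 per library, and 3 counts, taken as the lowest level this depth can show, equal 0.176 to 0.240 CPM (read counts scaled to the normalised library size). A row under the human identifier ENSG00000106031 had 0 counts in each CONTROL library and 2497, 7666 and 6572 counts in HOXA13 replicates 1, 2 and 3. CONTROL replicate 2 stood apart from the other CONTROL libraries. Pou5f1, the pluripotency factor used to gauge residual stem cell expression, was at 0.851, 310 and 5.77 CPM in replicates 1, 2 and 3 of CONTROL and at 75.9, 10.1 and 15.3 CPM in HOXA13 replicates 1, 2 and 3. Its highest library was thus a CONTROL and its second highest a HOXA13 library, and the groups overlapped (log2 fold change -1.65, SE 1.65, edgeR adjusted p = 0.734). The 15 naive pluripotency markers, which include Pou5f1, summed to between 264 and 1970 CPM in CONTROL and between 829 and 1245 CPM in HOXA13. Of these, 7 had a positive log2 fold change, against 48.8% of all genes. In HOXA13 replicates 2 and 3 most of the sum was Klf4 (279 and 226 CPM) and Klf5 (225 and 202 CPM). Nanog was at 1.29 and 1.52 CPM there, so the sum does not stand for every marker. The 18 markers of mesenchyme and feeder cells, none at 0 throughout, summed to between 2808 and 12073 CPM in CONTROL, lowest in replicate 2, and between 2337 and 6023 CPM in HOXA13. Most of the HOXA13 sum was Fn1 (3374, 2033 and 3728 CPM in CONTROL, 1997, 4631 and 4976 CPM in HOXA13). Fn1 was 1 of 3 among the 16 tested with a positive log2 fold change, against 48.8% of all genes. Vim was at 4351, 548 and 3576 CPM in CONTROL and at 155, 722 and 481 CPM in HOXA13. Cdh1, which encodes the sorted E-cadherin, was at 192, 1292 and 702 CPM in CONTROL and at 1732, 1690 and 1893 CPM in HOXA13, so that the groups did not overlap (log2 fold change 1.28, SE 0.55, edgeR adjusted p = 0.351), and its part in the results was not tested. Cxcr4, the other sorted marker, ran from 2.25 to 11.3 CPM. Of the remaining markers of definitive endoderm, Eomes was at 89.0, 49.0 and 111 CPM in CONTROL and at 24.4, 41.9 and 33.0 CPM in HOXA13, with no overlap and opposite in direction to Cdh1 (log2 fold change -1.32, edgeR adjusted p = 0.141). Epcam (18.7 to 413 CPM), Gata4 (13.1 to 31.9 CPM) and Gata6 (5.69 to 35.8 CPM) were higher than Sox17 (0.975 to 4.84 CPM) and Foxa2 (1.76 to 5.04 CPM), and Cer1 was at 0 in every library. The 10 markers of visceral and extraembryonic endoderm, with the defining Afp and Ttr at 0 throughout, summed to between 1175 and 2947 CPM in CONTROL and between 760 and 854 CPM in HOXA13, nearly all of it Sparc, a matrix gene that mesenchyme also expresses. In such bulk samples fewer cells of a type and less RNA per cell cannot be told apart.

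The first question was whether these 9 genes differed between HOXA13 and CONTROL cells. None of the 8 tested genes differed by edgeR's quasi-likelihood test after Benjamini-Hochberg adjustment over all genes (0 of 8, against 0.309% of all tested genes). At an unadjusted p under 0.05 the count was also 0 of 8, against 14.1% of all genes, and DESeq2, which also tested Tdg, called 0 of 9, against 4.09% of the genes it tested. Totals of 9 tested genes include Tdg, though its counts cannot be read as its expression, as given below. The median log2 fold change of the 8 genes was 0.06, beside -0.01 over all genes tested. Tet2 alone among them had no overlap between the groups, against 20.0% of all genes (11.5% higher and 8.52% lower in HOXA13). CONTROL replicate 2 bore on this result: without it edgeR called 3 of the 9 genes that then passed the filter, Dnmt3b and Uhrf1 as higher and Dnmt3a as lower in HOXA13, against 14.2% of all genes.

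**Figure D1:**
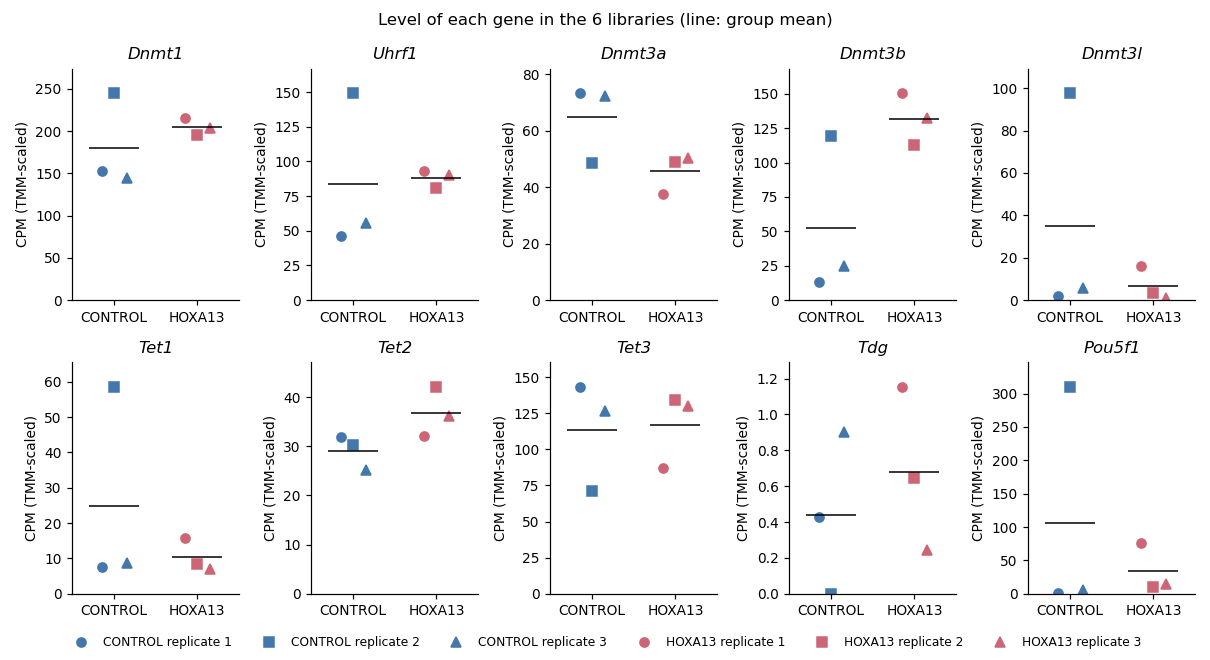
Level of each of the 9 genes and of Pou5f1 in the 6 libraries, in CPM on TMM-scaled library sizes (linear axes from 0). Each point is 1 library, the symbol gives the replicate number and the line is the group mean of 3. CONTROL replicate 2 is the highest CONTROL library for Dnmt1, Uhrf1, Dnmt3b, Dnmt3l, Tet1 and Pou5f1 and the lowest for Dnmt3a and Tet3.

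The maintenance genes come first. Dnmt1 (mm9, chromosome 9, 20711650 to 20757317, minus strand) was at 152, 245 and 144 CPM in replicates 1, 2 and 3 of CONTROL and at 215, 196 and 204 CPM in the HOXA13 replicates. The HOXA13 libraries lay close together and above CONTROL replicates 1 and 3, with CONTROL replicate 2 above them. The log2 fold change was 0.18 (SE 0.22, 95% interval -0.32 to 0.69, edgeR adjusted p = 0.781), and leaving out 1 library moved it between 0.03 without CONTROL replicate 3 and 0.45 without CONTROL replicate 2 (edgeR adjusted p = 0.991 and 0.0643). Uhrf1 (chromosome 17, 56442744 to 56462909, plus strand) was at 46.0, 149 and 55.9 CPM in CONTROL and at 93.2, 81.1 and 90.5 CPM in HOXA13. Its libraries fell in the same arrangement, with CONTROL replicate 2 highest and the other CONTROL libraries lowest. The fitted change was 0.08 on the log2 scale (SE 0.41, edgeR adjusted p = 0.961), and without CONTROL replicate 2 Uhrf1 was higher in HOXA13 by 0.78 (SE 0.17, edgeR adjusted p = 0.0195). Of the 75-base stretches of the Uhrf1 transcript, 17.6% occur exactly, and 58.4% with at most 2 mismatches, elsewhere in the genome, including a long copy on chromosome X, so part of its reads may have been lost or shared in counting, which was not tested. Across the 6 libraries Dnmt1 and Uhrf1 rose and fell together on the log2 scale (Pearson's r 0.956, n = 6, a description only). Markers of S phase, when both genes are normally expressed, showed the same arrangement in their sum of 20 genes, which came to 1493, 3188 and 1577 CPM in CONTROL and to 3095, 2569 and 2598 CPM in HOXA13. A positive log2 fold change was seen in 19 of the 20 (median 0.30), against 48.8% of all genes (median -0.01). Of the 20, 3 (Mcm6, Cdc6 and Pola1) were higher in every HOXA13 library than in any CONTROL library, against 11.5% of all genes. Gins2 was lower in the same way, against 8.52% of all genes. Mcm6 lies on chromosome 1, where the median log2 fold change of the 470 tested genes with a mean of 16 CPM or more was 0.53. Of the 20, edgeR called 0, against 0.309% of all genes, and their part in the Dnmt1 and Uhrf1 values was not tested.

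Of the 8 tested genes, Dnmt3l and Dnmt3b varied most, by 107-fold and 11.4-fold between the highest and lowest library, whereas Dnmt3a, the third gene of the de novo group, varied by 1.96-fold. The promoter sequences of Dnmt3b and Dnmt3l are shown because their CpG content differs. The RefSeq sequence of the 250 bases before the first listed start site (build GRCm38.p6) is given 5′ to 3′ on the gene's strand, with each CpG, the site these enzymes act on, in capitals.
Dnmt3b (chr2:153649199-153649448, plus strand): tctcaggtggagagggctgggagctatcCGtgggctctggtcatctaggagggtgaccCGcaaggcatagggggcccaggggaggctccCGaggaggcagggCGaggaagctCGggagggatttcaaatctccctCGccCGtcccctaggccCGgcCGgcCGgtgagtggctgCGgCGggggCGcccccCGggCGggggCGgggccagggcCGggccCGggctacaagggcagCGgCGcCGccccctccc
Dnmt3l (chr10:78042037-78042286, plus strand): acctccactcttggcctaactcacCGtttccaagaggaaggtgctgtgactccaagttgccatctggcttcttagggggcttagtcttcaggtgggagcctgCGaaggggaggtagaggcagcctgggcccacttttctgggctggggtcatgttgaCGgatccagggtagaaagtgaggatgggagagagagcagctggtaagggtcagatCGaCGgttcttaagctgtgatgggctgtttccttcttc
The Dnmt3b window holds 21 CpG, more than 83.7% of the 32851 start sites in the same table, and the Dnmt3l window 5, where the median of all start sites is 6. The other Dnmt3l start sites hold 4 and 3 CpG. Counts per gene do not show which start site was used, and methylation itself was not measured.

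Dnmt3b (mm9, chromosome 2, 153475186 to 153513466, plus strand), a main de novo methyltransferase of the early embryo, was at 13.2, 119 and 24.8 CPM in replicates 1, 2 and 3 of CONTROL and at 150, 113 and 133 CPM in HOXA13. The 3 HOXA13 libraries were uniformly high, CONTROL replicate 2 fell among them, and the other CONTROL libraries were far lower. The fitted log2 fold change was 1.33 (SE 0.70, 95% interval -0.27 to 2.94, edgeR adjusted p = 0.449). Dnmt3b passed the threshold without CONTROL replicate 2 (log2 fold change 2.78, SE 0.29, edgeR adjusted p = 0.00115), whereas it was 0.85 without CONTROL replicate 1 and 0.98 without CONTROL replicate 3 (edgeR adjusted p = 0.749 and 0.782). It also passed with limma voom and sample quality weights (2.46, adjusted p = 0.00246), which called 15.4% of all genes. Over all 15 alternatives its adjusted p in edgeR, DESeq2 or limma ran from 0.00115 to 0.782. Of its 75-base stretches, 3.20% occur exactly elsewhere in the genome.

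Dnmt3a (chromosome 12, 3806007 to 3914443, plus strand), the de novo enzyme that predominates in later embryos and adult tissues, ran the other way. It was at 73.2, 48.6 and 72.4 CPM in CONTROL and at 37.4, 49.0 and 50.3 CPM in HOXA13. CONTROL replicates 1 and 3 were above every HOXA13 library, while CONTROL replicate 2 lay within the HOXA13 range. This gave a log2 fold change of -0.51 (SE 0.23, 95% interval -1.03 to 0.02, edgeR adjusted p = 0.377). It passed the threshold without CONTROL replicate 2 (-0.69, edgeR adjusted p = 0.0416) and with limma voom and quality weights (-0.54, adjusted p = 0.0464). Over all 15 alternatives the adjusted p in edgeR, DESeq2 or limma ran from 0.0416 to 0.724.

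Dnmt3l (chromosome 10, 77504692 to 77526367, plus strand), the catalytically inactive partner, was at 1.77, 97.5 and 5.85 CPM in CONTROL and at 15.98, 3.51 and 0.909 CPM in HOXA13. CONTROL replicate 2 was well above every other library, HOXA13 replicate 1 was second and the remaining 4 were low. The log2 fold change of -2.37 (SE 1.45, edgeR adjusted p = 0.531) rested on that CONTROL library, since it was 0.81 (SE 1.04, edgeR adjusted p = 0.669) without it.

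The levels per kilobase of exon allow the 3 DNMT3 genes to be set against each other within a library. Of their summed CPM per kilobase, Dnmt3b made up 34.1%, 39.6% and 43.5% in replicates 1, 2 and 3 of CONTROL and 79.5%, 84.3% and 88.7% in the HOXA13 replicates. The groups did not overlap, and in this measure CONTROL replicate 2 lay between the other CONTROL libraries. Cdh1, Eomes and the summed visceral endoderm markers also did not overlap between the groups, and their part in this share was not tested. Of the 7 primed epiblast markers, a list that holds Dnmt3b itself, Dnmt3b was the 1 gene with a positive log2 fold change, against 48.8% of all genes. In this list edgeR called 0, against 0.309% of all genes, and 3 had an unadjusted p under 0.05, against 14.1%. Otx2 (-2.65, edgeR adjusted p = 0.211) and Fst (-1.97, edgeR adjusted p = 0.0754) were lower with no overlap, against 8.52% of all genes. Their part in the share was not tested. The mean share was 39.1% ± 4.73 in CONTROL and 84.1% ± 4.59 in HOXA13 (SD, n = 3 each), a difference of 45.1 percentage points, with a two-sided exact permutation p of 0.1, the smallest that 3 against 3 libraries allow. This share was computed after the values of the single genes had been seen. Leaving out each library in turn gave differences from 42.6 to 47.4 points, and the groups also did not overlap with the length of the longest transcript, or with no division by length (14.96%, 44.9% and 24.1% in CONTROL, 73.8%, 68.2% and 72.2% in HOXA13).

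The remaining share was divided differently in each CONTROL library. Dnmt3a made up 58.1% and 38.9% of the DNMT3 sum in CONTROL replicates 1 and 3 but 4.96% in CONTROL replicate 2, where Dnmt3l made up 55.4%. In HOXA13, Dnmt3a made up 6.07%, 11.2% and 10.3%, and Dnmt3l 14.4%, 4.48% and 1.04%. Thus CONTROL replicate 2 shared its low Dnmt3a share with the HOXA13 libraries and differed from them in the large Dnmt3l share. The DNMT3 sum itself was 7.57, 58.9 and 11.2 CPM per kilobase in CONTROL and 37.0, 26.2 and 29.3 in HOXA13, so the groups overlapped in the sum. The ratio of Dnmt3b to Dnmt3a per kilobase was 0.587, 7.99 and 1.118 in CONTROL and 13.1, 7.50 and 8.61 in HOXA13, which overlapped (log2 ratio difference 2.44, two-sided exact permutation p = 0.2).

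**Figure D2:**
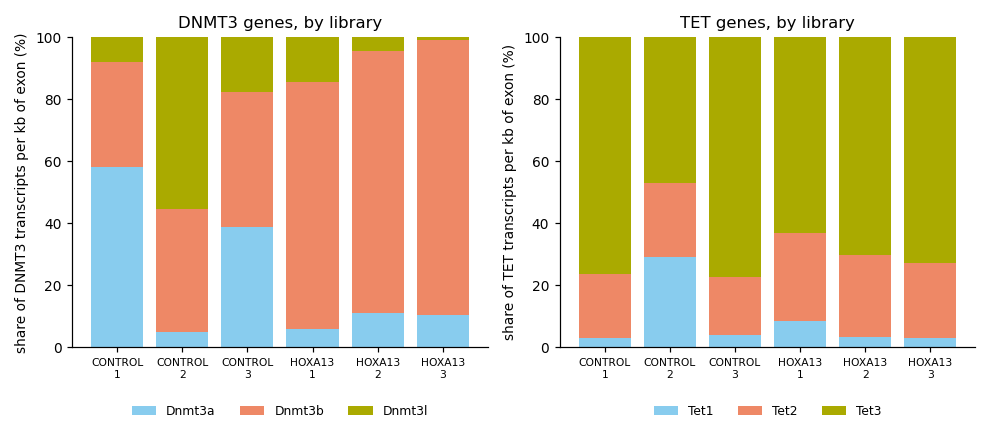
Share of each gene in the summed CPM per kilobase of exon of its family, in percent (0 to 100), for the DNMT3 genes (left) and the TET genes (right), with 1 bar per library. Dnmt3b takes between 34.1% and 43.5% in CONTROL and between 79.5% and 88.7% in HOXA13, while Dnmt3l and Tet1 take their largest shares in CONTROL replicate 2.

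On the demethylating side, the promoter windows of Tet1 and Tet3 are shown because these genes ran in opposite directions over the libraries (r -0.941 on the log2 scale, n = 6, a description only). They are given as above, 250 bases before the first listed RefSeq start site in GRCm38.p6 with CpG in capitals.
Tet1 (chr10:62887325-62887574, minus strand): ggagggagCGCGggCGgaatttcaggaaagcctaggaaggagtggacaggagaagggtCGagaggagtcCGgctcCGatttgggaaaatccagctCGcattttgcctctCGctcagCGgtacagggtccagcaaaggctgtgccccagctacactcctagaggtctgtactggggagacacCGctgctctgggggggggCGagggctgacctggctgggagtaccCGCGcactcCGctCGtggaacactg
Tet3 (chr6:83441679-83441928, minus strand): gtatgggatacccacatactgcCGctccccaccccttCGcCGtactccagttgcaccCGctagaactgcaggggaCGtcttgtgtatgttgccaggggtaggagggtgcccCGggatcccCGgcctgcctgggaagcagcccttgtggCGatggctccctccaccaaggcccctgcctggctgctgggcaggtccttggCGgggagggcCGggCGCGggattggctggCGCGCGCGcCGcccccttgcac
Both windows are rich in CpG, with 15 in Tet1 and 17 in Tet3. The windows of all 16 start sites of the 9 genes were searched on both strands for 4 sequences: the POU octamer ATGCAAAT, the E2F sequences TTTCCCGC and TTTGGCGC, and CCAATAAA, a sequence that HOX proteins of group 13 bind. None held any of them, where 1.6%, 0.895%, 0.417% and 1.02% of all 32851 start sites did, which says only that these letters are not in these windows.

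Tet1 (mm9, chromosome 10, 62267318 to 62361866, minus strand), the main TET gene of pluripotent cells, was at 7.45, 58.5 and 8.77 CPM in CONTROL and at 15.8, 8.49 and 6.97 CPM in HOXA13. As for Dnmt3l, CONTROL replicate 2 was far above the rest and HOXA13 replicate 1 was second. Its log2 fold change was -1.26 (SE 0.79, edgeR adjusted p = 0.540) and turned to 0.34 (SE 0.43, edgeR adjusted p = 0.667) without CONTROL replicate 2. Tet3 (chromosome 6, 83312367 to 83391672, minus strand), known from the zygote and from differentiating cells, was at 143, 71.2 and 126 CPM in CONTROL and at 86.8, 134 and 130 CPM in HOXA13. Here CONTROL replicate 2 and HOXA13 replicate 1 were the lowest libraries and the other 4 lay between 126 and 143 CPM. The log2 fold change was 0.04 (SE 0.29, 95% interval -0.62 to 0.70, edgeR adjusted p = 0.972), and it turned to -0.22 without CONTROL replicate 2.

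Tet2 (chromosome 3, 133126643 to 133207354, minus strand), the TET gene best known from blood cells, varied least of the 8 tested genes, by 1.67-fold between its lowest and highest library. It was at 31.9, 30.2 and 25.1 CPM in CONTROL and at 32.0, 42.1 and 36.1 CPM in HOXA13. The HOXA13 libraries were above those of CONTROL, though HOXA13 replicate 1 and CONTROL replicate 1 were almost level. The log2 fold change was 0.34 (SE 0.21, 95% interval -0.15 to 0.82), which did not pass (edgeR adjusted p = 0.538).

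Per kilobase, Tet3 made up most of the TET sum in 5 of the 6 libraries, with 76.5%, 46.9% and 77.4% in CONTROL and 63.2%, 70.1% and 72.7% in HOXA13. Tet1 made up 3.00%, 29.1% and 4.05% in CONTROL and 8.65%, 3.35% and 2.94% in HOXA13. Tet2 made up 20.5%, 24.0% and 18.5% in CONTROL and 28.1%, 26.5% and 24.4% in HOXA13, the 1 TET share in which the groups did not overlap, though CONTROL replicate 2 and HOXA13 replicate 3 were almost level. The TET sum was between 12.4 and 17.2 CPM per kilobase in the 6 libraries, a narrow range beside that of the DNMT3 sum. The ratio of Tet1 to Tet3 did not differ between the groups beyond the spread (log2 ratio difference -0.75, two-sided exact permutation p = 0.7).

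Tdg (chromosome 10, 82092573 to 82113544, plus strand) had 6, 0 and 12 counts in CONTROL and 15, 11 and 4 counts in HOXA13 and did not pass the filter. These counts cannot be read as its expression. Of the 75-base stretches of its transcript, 73.3% occur exactly, and 85.4% with at most 2 mismatches, elsewhere in the mm9 genome. Copies of 1254 to 3026 bases with 98.6% to 99.6% identity lie on chromosomes 15, 7, 10 and 19, the longest on chromosome 15 (82346686 to 82349711). How reads with several positions were handled is not given in the sources used here, so Tdg is left as not measured.

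**Figure D3:**
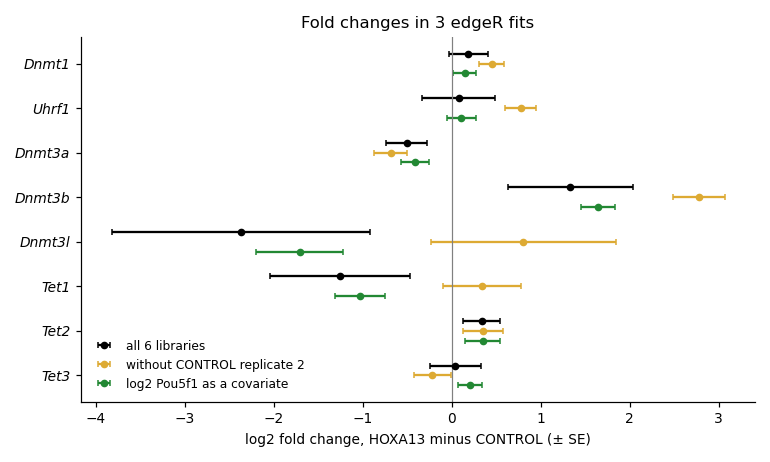
Log2 fold change (HOXA13 minus CONTROL) with its standard error for the 8 tested genes, in edgeR fits with all 6 libraries, without CONTROL replicate 2, and with log2 Pou5f1 as a covariate. Dnmt3b moves from 1.33 to 2.78 without CONTROL replicate 2, and Dnmt3l, Tet1 and Tet3 change sign.

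Ordered by mean CPM per kilobase, Dnmt1 led in both groups, at 34.3 ± 10.6 in CONTROL and 38.9 ± 1.82 in HOXA13 (SD, n = 3 each). In HOXA13 it was followed by Dnmt3b (25.8 ± 3.67), Uhrf1 (20.7 ± 1.497) and Tet3 (10.5 ± 2.36), and these neighbours did not overlap. Dnmt3b in HOXA13 replicate 2 (22.1) and Uhrf1 in HOXA13 replicate 1 (21.9) were almost level. Since reads of Uhrf1 may have been lost or shared in counting, its place is uncertain. Below them Tet2 (3.99 ± 0.547), Dnmt3a (2.74 ± 0.426) and Dnmt3l (2.28 ± 2.70) followed, and Dnmt3l overlapped with both. Tet1 was lowest of the tested genes at 0.707 ± 0.319. The place of Dnmt3a rests on the length used, 16642 bases of exon in all against 9685 in its longest transcript. By the longest transcript it came before Tet2 in HOXA13 (4.71 ± 0.731 against 4.00 ± 0.549), and these overlapped. In CONTROL, Uhrf1 (19.7 ± 13.4), Dnmt3l (11.7 ± 18.1), Dnmt3b (10.3 ± 11.4) and Tet3 (10.2 ± 3.39) followed Dnmt1, and their order was not larger than the spread between libraries. Dnmt3a (3.89 ± 0.839), Tet2 (3.16 ± 0.384) and Tet1 (1.69 ± 1.98) came last. That they came after Dnmt3l rested on CONTROL replicate 2. In CONTROL replicates 1 and 3, Dnmt3a (4.40 and 4.35) and Tet2 (3.47 and 2.73) were above Dnmt3l (0.593 and 1.96). By the longest transcript, Dnmt3a (7.56 and 7.47) was also above Dnmt3b (3.05 and 5.75) in these libraries.

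The second question was how each gene tracked the residual Pou5f1 of a library. On the log2 CPM scale over the 6 libraries, Uhrf1 had Pearson's r 0.953 with Pou5f1 (exact permutation p = 0.00972), Dnmt1 0.883 (exact p = 0.0222), Tet1 0.847 (exact p = 0.0167) and Tet3 -0.927 (exact p = 0.00694). These 4 of the 8 genes had an exact p under 0.05, against 20.3% of all genes. Dnmt3l (0.809, exact p = 0.0514), Dnmt3b (0.792, exact p = 0.0597) and Dnmt3a (-0.756, exact p = 0.0694) had r of similar size, and Tet2 showed none (-0.03, exact p = 0.974). In all, 7 of 8 had an r of 0.75 or more in size, against 29.0% of all genes. Dnmt3a, the weakest of the 7, lay just above this cut, so the count rests on where the cut was set. After adjustment over all 13599 other genes 0 of 8 passed, as did 0.000% of all genes. With 720 pairings no exact p can go below 0.00139, and the adjusted values of the 8 genes ran from 0.145 for Tet3 to 0.987 for Tet2.

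Spearman's rho was 1.0 for Uhrf1 (exact permutation p = 0.00278, adjusted p = 0.0991), so that the libraries stood in the same order for Uhrf1 and Pou5f1. It was 0.943 for Dnmt1 (exact p = 0.0167), -0.886 for Dnmt3a (exact p = 0.0333), 0.829 for Dnmt3b and -0.829 for Tet3 (exact p = 0.0583 for both). For Dnmt3l and Tet1 it was lower, at 0.6 (exact p = 0.242 for both), since the libraries low in Pou5f1 were not ordered in these genes, and for Tet2 it was 0.086 (exact p = 0.919). Without the libraries farthest from the median of Pou5f1, CONTROL replicates 1 and 2, r over the remaining 4 was -0.910 for Dnmt3a, -0.906 for Tet3, 0.803 for Tet1, 0.764 for Dnmt1, 0.756 for Uhrf1, 0.711 for Dnmt3b and 0.495 for Dnmt3l. The relation of Dnmt3l thus rested in part on those 2 libraries. For Dnmt3b r fell to 0.565 without CONTROL replicate 1. With Nanog, another pluripotency gene, in place of Pou5f1, r was 0.490 for Dnmt3b and -0.460 for Dnmt3a, and 0.736 or more in size for the other genes except Tet2. With Zfp42, a further pluripotency gene, it moved the other way, to 0.920 for Dnmt3b (exact p = 0.0139) and -0.822 for Dnmt3a (exact p = 0.0361), while it was 0.675 for Tet1 (exact p = 0.154) and 0.636 for Dnmt3l (exact p = 0.168).

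Single libraries were also set side by side by their Pou5f1 level, with no test. HOXA13 replicates 2 and 3, at 10.1 and 15.3 CPM of Pou5f1, had Dnmt3b at 113 and 133 CPM, whereas CONTROL replicate 3, at 5.77 CPM of Pou5f1, had Dnmt3b at 24.8 CPM. CONTROL replicate 2, with 310 CPM of Pou5f1, had 119 CPM of Dnmt3b, between HOXA13 replicate 2 (113 CPM) and replicates 3 and 1 (133 and 150 CPM). Tet1, by contrast, was at 58.5 CPM in CONTROL replicate 2 and at most 15.8 CPM in HOXA13. When the group means were removed from both genes, r with Pou5f1 was 0.972 for Dnmt3b, 0.965 for Tet1, 0.955 for Uhrf1, 0.928 for Dnmt3l, 0.906 for Dnmt1, -0.964 for Tet3 and -0.927 for Dnmt3a. These 7 of 8 genes had a size of 0.9 or more, against 19.4% of all genes, and Tet2 was at -0.23. Dnmt1, the weakest of the 7, lay just above this cut, so the count rests on where the cut was set. Each group has 3 libraries, too few for an r within a group. Pou5f1 itself has 24.4% of its 75-base stretches exactly elsewhere in the genome, and its part in these values was not tested.

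**Figure D4:**
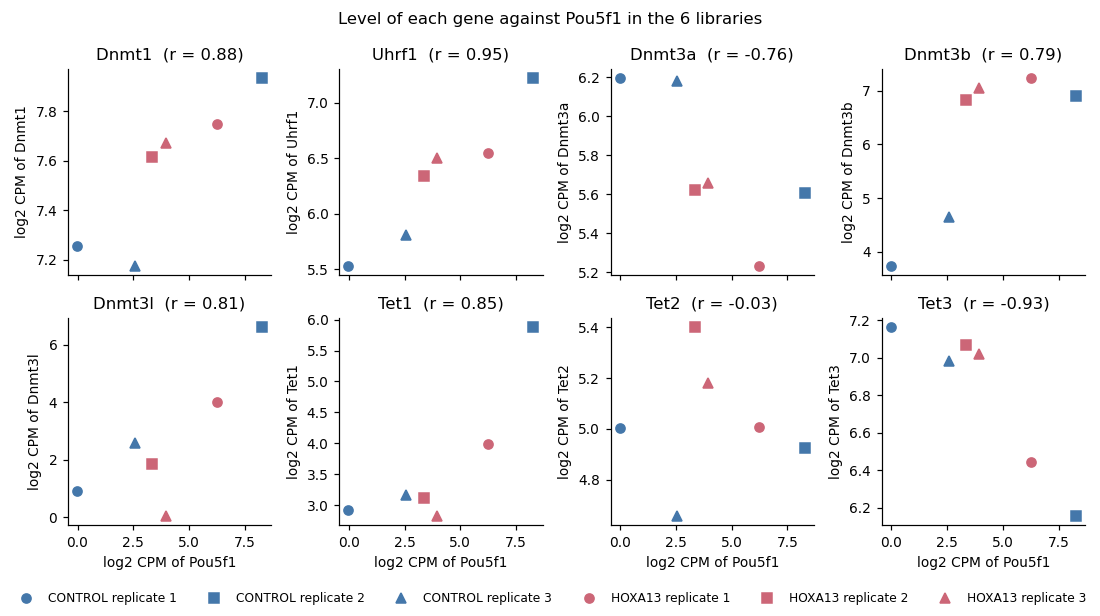
Log2 CPM of each of the 8 tested genes against log2 CPM of Pou5f1 in the 6 libraries (blue CONTROL, red HOXA13; symbols give the replicate number; vertical axes do not start at 0). Uhrf1 follows the order of Pou5f1 in every library, Tet3 runs against it, Tet2 shows no relation, and the HOXA13 libraries lie above CONTROL replicates 1 and 3 for Dnmt3b.

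With log2 Pou5f1 of each library as a covariate, a fit chosen after the values had been seen, edgeR called 1 of the 8 genes, against 8.32% of all genes. Dnmt3b was higher in HOXA13 by 1.64 on the log2 scale (SE 0.19, edgeR adjusted p = 0.00135). Dnmt3l (-1.71, SE 0.49, edgeR adjusted p = 0.06) and Tet1 (-1.03, SE 0.28, edgeR adjusted p = 0.0518) were lower but did not pass, and both had a positive sign in the fit without CONTROL replicate 2 and without the covariate. In the covariate fit Dnmt1 was at 0.14, Uhrf1 at 0.11, Dnmt3a at -0.42, Tet2 at 0.35 and Tet3 at 0.20, none of which passed in edgeR. The mesenchyme and feeder markers run largely opposite to Pou5f1 over the libraries, and their part in these values was not tested.

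The further genes of the pathway were taken as 5 lists, and edgeR called 0 genes in each of them. Counts at an unadjusted p under 0.05 are to be read against 14.1% of all genes, and those with no overlap against 20.0%. Among the cofactors of maintenance and de novo methylation, 13 of 15 were tested, with a median log2 fold change of 0.08, and 1 had an unadjusted p under 0.05. Ctcf, whose protein binds unmethylated boundary sites, was at 0.33 and Pcna, the replication clamp, at 0.28. The lowest were Zfp57, which guards imprinted methylation (-0.60), and Uhrf2, the paralogue of Uhrf1 (-0.45, edgeR adjusted p = 0.325). Hells, a remodeller needed for methylation of repeats, was at 44.5, 140 and 51.0 CPM in CONTROL and at 105, 92.3 and 86.9 CPM in HOXA13, the arrangement seen for Dnmt1 and Uhrf1; it was picked out after its values were seen. Without CONTROL replicate 2 edgeR called 3 of the 13 cofactors, Hells, Pcna and Uhrf2, against 14.2% of all genes.

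Of the 10 methyl-CpG binding proteins, which read the mark, 10 were tested with a median of -0.05, and 0 had an unadjusted p under 0.05 in edgeR or passed in DESeq2. Mbd1 (0.39) and Zbtb33 (0.16) were highest and Mbd5 (-0.51) and Zbtb4 (-0.23) lowest, and Mbd1 was the 1 gene of this list with no overlap. Zbtb4 lies on chromosome 11, where the median of the 675 tested genes with a mean of 16 CPM or more was -0.17. Of the genes for base excision repair and deamination, which complete demethylation, 16 of 17 were tested, with a median of 0.12 and 2 at an unadjusted p under 0.05. Parp1, a sensor of DNA breaks, was at 0.79 (edgeR adjusted p = 0.348) and Lig1, a DNA ligase, at 0.46. Parp1 lies on chromosome 1, where the median of the 470 tested genes with a mean of 16 CPM or more was 0.53. Gadd45a, a stress gene linked to demethylation, was at 171, 208 and 138 CPM in CONTROL and at 109, 127 and 97.3 CPM in HOXA13. The groups did not overlap, but the log2 fold change of -0.63 did not pass (SE 0.20, edgeR adjusted p = 0.202), and Gadd45g was at -0.61. Without CONTROL replicate 2 edgeR called 5 of the 16, Apex1, Fen1, Lig1, Parp1 and Ung, against 14.2% of all genes. With the Pou5f1 covariate it called Gadd45a and Parp1, against 8.32%. The genes called by limma voom with quality weights were Apobec1, Fen1, Lig1 and Parp1, against 15.4% of all genes.

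The list for supply of methyl donors and of 2-oxoglutarate, the cosubstrate of TET enzymes, had 16 of 16 genes tested, with a median of 0.13 and 4 at an unadjusted p under 0.05. D2hgdh (0.66), on chromosome 1, and Shmt1 (0.63) were highest, and Idh2 (-0.65) and Mat2b (-0.37) lowest. Shmt1 and Mat2b lie on chromosome 11, where the median of the 675 tested genes with a mean of 16 CPM or more was -0.17. Idh2, a mitochondrial enzyme that makes 2-oxoglutarate, was at 96.7, 123 and 102 CPM in CONTROL and at 81.0, 69.7 and 54.5 CPM in HOXA13, with no overlap (edgeR adjusted p = 0.197). Mtr (0.55) and Idh3a (0.42), a subunit of another mitochondrial isocitrate dehydrogenase, also did not overlap, with the HOXA13 libraries above those of CONTROL, but did not pass (edgeR adjusted p = 0.239 and 0.348), and they were named after their values were seen. The genes called by limma voom with quality weights were Idh2, Idh3a, Mtr and Shmt1, against 15.4% of all genes. In edgeR, Idh2 was called with the Pou5f1 covariate and Shmt1 without CONTROL replicate 2, against 8.32% and 14.2%.

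The last list held 14 germline genes known to be silenced by promoter methylation in somatic cells. Of these, 9 passed the filter with a median log2 fold change of 0.86. This median describes the 9 genes alone, since low genes can pass the filter through the HOXA13 libraries while genes seen mainly in CONTROL replicate 2 are dropped, and nothing is read from it about the list. Tdrd1, of the piRNA pathway, was at 1.63, 7.36 and 4.12 CPM in CONTROL and at 12.6, 17.3 and 18.7 CPM in HOXA13. Every HOXA13 library was above every CONTROL library, with a log2 fold change of 1.89 (SE 0.53) that did not pass in edgeR (adjusted p = 0.172). Tdrd1 was called by DESeq2 and by limma voom with quality weights, against 4.09% and 15.4% of all genes. It was also called by edgeR with the Pou5f1 covariate and without CONTROL replicate 2, against 8.32% and 14.2%. Other germline genes were called in some settings too. Limma voom with quality weights called Tex19.1, and edgeR without CONTROL replicate 2 called Tex19.1 and Taf7l, against 15.4% and 14.2%. Tex19.1 was at 8.37, 19.7 and 3.67 CPM in CONTROL and at 25.5, 15.3 and 16.8 CPM in HOXA13 (log2 fold change 0.86), and Ddx4 at 8.51, 66.3 and 23.6 CPM against 63.1, 37.8 and 33.1 CPM (0.45). In both genes CONTROL replicate 2 lay within or above the HOXA13 range and replicates 1 and 3 below it.

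**Figure D5:**
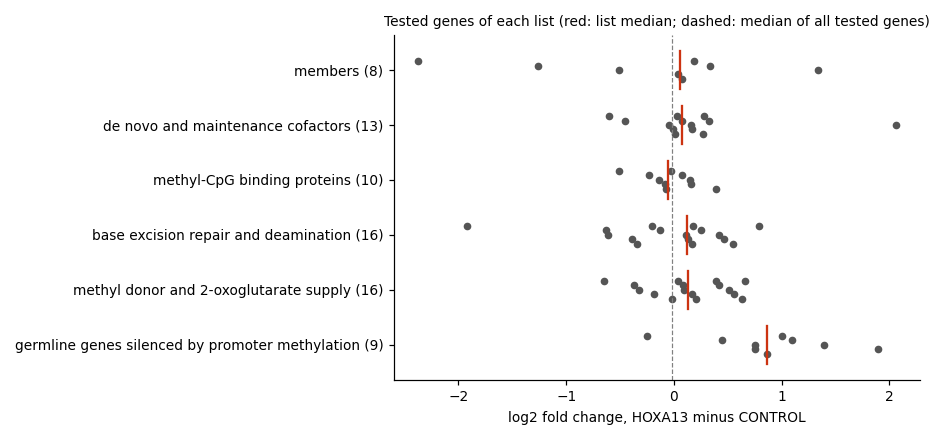
Log2 fold change (HOXA13 minus CONTROL) of each tested gene of the 9 enzymes and of the 5 pathway lists, with the number tested in brackets; the red bar is the list's median and the dashed line the median of all tested genes (-0.01). The medians of the first 5 rows lie between -0.05 and 0.13 and that of the germline genes at 0.86.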

How the data were processed

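The authors deposited raw counts per gene symbol, 1 list per library, from stranded poly-A libraries. The submitters' processing notes name bcl2fastq 2.17, TopHat2 2.0.14, HTSeq 0.6.1p1 and build mm9. Which annotation and strand option served for counting, and how multiply aligned reads were handled, is not given in the sources used here, so overlapping, antisense and near-identical genes are uncertain.

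Groups and replicate numbers came from the sample titles. The comparison of groups used edgeR 4.0.16 under R 4.3.3: filterByExpr by group (minimum count 10, minimum total 15), TMM scaling, glmQLFit and glmQLFTest with the group alone over all 6 libraries, and Benjamini-Hochberg adjustment over the 13600 tested genes at a threshold of 0.05, two-sided. Standard errors were derived from the F statistic. DESeq2 1.42.0, the study's tool, limma 3.58.1 voom with sample quality weights, other scalings and filters, a replicate block and leaving out each library were alternatives. Correlations used log2 CPM (prior count 2) and all 720 pairings, two-sided. Their p-values were adjusted over all genes, where the plan had named the 9 genes alone. Values per kilobase used the exons of GENCODE M1 on mm9, and transcript copies were searched with blastn 2.17.0. The edgeR fit and the correlation test were checked on simulated data.

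The 9 genes, the lists and the tests were chosen with earlier results of these data known. All 9 genes were named, together with the 2 highest and 2 lowest tested genes of each list averaging 5 CPM or more. Intervals cover the spread between these 6 libraries only, and the floor of 3 counts covers counting error only.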

Additional observations from a re-analysis of the deposited data

How the results depend on the processing

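Of the 15 alternatives, 3 moved the count of called enzyme genes from 0: it was 2 with limma voom and quality weights (Dnmt3a and Dnmt3b), 1 with the Pou5f1 covariate (Dnmt3b, added after seeing the data) and, leaving out each library in turn, between 0 and 3, the 3 being without CONTROL replicate 2. In the same order (voom, covariate, and range without 1 library) the called counts were 2, 1 and 0 to 3 for the cofactors, 4, 2 and 0 to 5 for base excision repair, 4, 1 and 0 to 1 for methyl donor supply, and 2, 1 and 0 to 3 for the germline genes, where DESeq2 also called 1. For the methyl-CpG binding proteins the count was 0 throughout. Leaving out 1 library turned the sign of Dnmt3l (log2 fold change from -3.99 to 0.81), Tet1 (-1.72 to 0.34), Uhrf1 (-0.24 to 0.78) and Tet3 (-0.22 to 0.22), none of which had been called. Leaving out CONTROL replicate 2 turned Dnmt3l, Tet1 and Tet3, leaving out HOXA13 replicate 2 or 3 also turned Tet3, and leaving out CONTROL replicate 1 or 3 turned Uhrf1. Without 1 library the log2 fold change ran from 0.03 to 0.45 for Dnmt1, from 0.85 to 2.78 for Dnmt3b, from -0.69 to -0.39 for Dnmt3a and from 0.20 to 0.41 for Tet2. The correlation of Tet2 with Pou5f1, near 0, turned to 0.180 with Zfp42, to 0.0425 with the mean of the naive markers and to 0.157 without the 2 farthest libraries, and ran from -0.32 to 0.172 without 1 library. In place of 0.792 with Pou5f1 that of Dnmt3b was 0.490 with Nanog and 0.920 with Zfp42, that of Dnmt3a was -0.460 and -0.822 in place of -0.756, and without the 2 farthest libraries that of Dnmt3l was 0.495. Over all genes the edgeR count of 42 became 722 in DESeq2, 2101 in voom, 163 with no filter, 106 with the edgeR 4 method, 9 with a mean of at least 50 counts, 1132 with the covariate and from 0 to 2006 without 1 library. The cause was not tested.

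The replicate numbers were not taken as pairs: same-numbered libraries had correlations of -0.210, -0.271 and 0.0979 between their deviations from the group means. With the replicate number as a block edgeR called 0 of the 8 enzyme genes and 0 of all genes (1392 at an unadjusted p under 0.05), and Dnmt3b was at 1.99 (edgeR adjusted p = 0.441).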

Other observations

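The genes whose log2 CPM had the highest Pearson's r with that of an enzyme gene over the 6 libraries were listed among the 10724 tested genes averaging 5 CPM or more, as a description over few libraries. For Dnmt3b they were Ano9 (r 0.999) and Grtp1 (r 0.999). Ano9, of the anoctamin family of membrane proteins, was at 0.496, 8.24 and 1.125 CPM in CONTROL and at 9.22, 7.32 and 8.79 CPM in HOXA13. Grtp1 was at 0.780, 28.9 and 2.32 CPM in CONTROL and at 39.0, 30.1 and 30.4 CPM in HOXA13. Both thus had the arrangement of Dnmt3b, with CONTROL replicate 2 beside the HOXA13 libraries and the other CONTROL libraries far below. For Dnmt3l those of highest r were Gtf2h4 (r 0.994), a subunit of the general factor TFIIH, and Zfp711 (r 0.993), and for Tet1 they were Psmc4 (r 0.997), a proteasome subunit, and Upp1 (r 0.991), a uridine phosphorylase. An r does not show the size of a change. Gtf2h4 ran from 33.4 to 43.9 CPM and Psmc4 from 215 to 297 CPM over the libraries. Zfp711 ran from 6.18 to 20.1 CPM and Upp1 from 11.3 to 51.97 CPM. Each had a smaller fold range between its lowest and highest library than the enzyme gene it was matched to. Pou5f1 itself ranked 159th of the 10724 for Uhrf1, 376th for Tet1, 453rd for Dnmt3l, 742nd for Dnmt1, 1781st for Dnmt3b, 5645th for Tet2, 8906th for Dnmt3a and 10507th for Tet3. Of the enzyme genes, then, Uhrf1 had Pou5f1 nearest the top and Tet3 nearest the bottom.

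Among the enzyme genes themselves, the pairs most alike over the 6 libraries were Dnmt1 with Uhrf1 (r 0.956) and Dnmt3l with Tet1 (r 0.953). The pairs most opposed were Tet1 with Tet3 (r -0.941), Dnmt3l with Tet3 (r -0.929) and Dnmt3a with Dnmt3b (r -0.924). Dnmt3b and Dnmt3l, by contrast, had an r of 0.333.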
